A study of Mus musculus with 3 samples.

Results

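The missplicing genes of myotonic dystrophy examined here are Clcn1, Insr, Bin1, Tnnt2, Tnnt3, Ldb3, Pdlim3, Mtmr1 and Capzb, 9 genes whose splicing is altered in patients with the disease. The sites examined were the CELF1 CLIP clusters that carry the Entrez identifier of one of these genes, 203 of the 72222 clusters of the series. CLIP-seq uses UV light, here at 254 nm, to fix a protein to the RNA it touches, and a cluster is a short stretch where reads piled up beyond what the abundance and length of the transcript would give. Endogenous CELF1 was pulled down with the 3B1 antibody from the heart ventricle and the muscle of 16-week-old C57/BL6 mice and from cultured C2C12 cells, a mouse line of muscle precursors (myoblasts). No transgene or treatment is given for these samples, and the sources used here do not name the muscle that was taken. There was 1 library of each kind, so no value has a replicate, no test between tissues was possible, and every interval covers counting error only.

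Myotonic dystrophy is caused by repeat expansions whose RNA traps the MBNL splicing proteins, and in type 1 disease CELF1 also becomes more abundant. Both proteins regulate alternative exons that switch between fetal and adult forms, often in opposite directions. CELF1 binds RNA rich in UGU, in introns next to regulated exons and in the 3' untranslated regions (UTRs) of mRNAs, where it promotes decay. The 9 genes encode a chloride channel (Clcn1), the insulin receptor (Insr), a protein that shapes T-tubule membranes (Bin1), the troponin T forms of heart (Tnnt2) and fast muscle (Tnnt3), Z-disc proteins with PDZ and LIM domains (Ldb3 and Pdlim3), a phosphoinositide phosphatase (Mtmr1) and a subunit of the actin capping protein (Capzb).

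CELF1 clusters were found in 9 of 9 genes in heart, in 9 of 9 in muscle and in 1 of 9 in myoblasts. Among 22380 annotated protein-coding genes, 30.4% held a cluster in heart, 23.6% in muscle and 12.1% in myoblasts. The 9 genes were chosen with earlier results of these data known, and expression was not taken into account, so this comparison is not a test. The 9 genes held 112 of 42263 heart clusters, 90 of 24844 muscle clusters and 1 of 5115 myoblast clusters. Their median was 6 clusters per gene in heart and 10 in muscle, against 3 in heart and 1 in muscle over the 8037 genes with a cluster in any library. Clusters carry no read numbers, so the depth behind each one is unknown.

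Of the marker lists, the heart muscle list had clusters in 6 of 8 genes in heart (341 clusters, with Myl7 and Nppa at 0), in 1 of 8 in muscle (3 clusters) and in 1 of 8 in myoblasts (1 cluster). The skeletal muscle list had clusters in 5 of 9 genes in heart (17 clusters), in 7 of 9 in muscle (96 clusters, with Tnnt1 and Mylpf at 0) and in 0 of 9 in myoblasts. The myoblast list had clusters in 1 of 7 genes in heart (5 clusters), in 2 of 7 in muscle (4 clusters) and in 4 of 7 in myoblasts (18 clusters, with Mki67, Myf5 and Id3 at 0). Endothelial markers had clusters in 6 of 6 genes in heart, in 4 of 6 in muscle and in 0 of 6 in myoblasts.

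**Figure D1:**
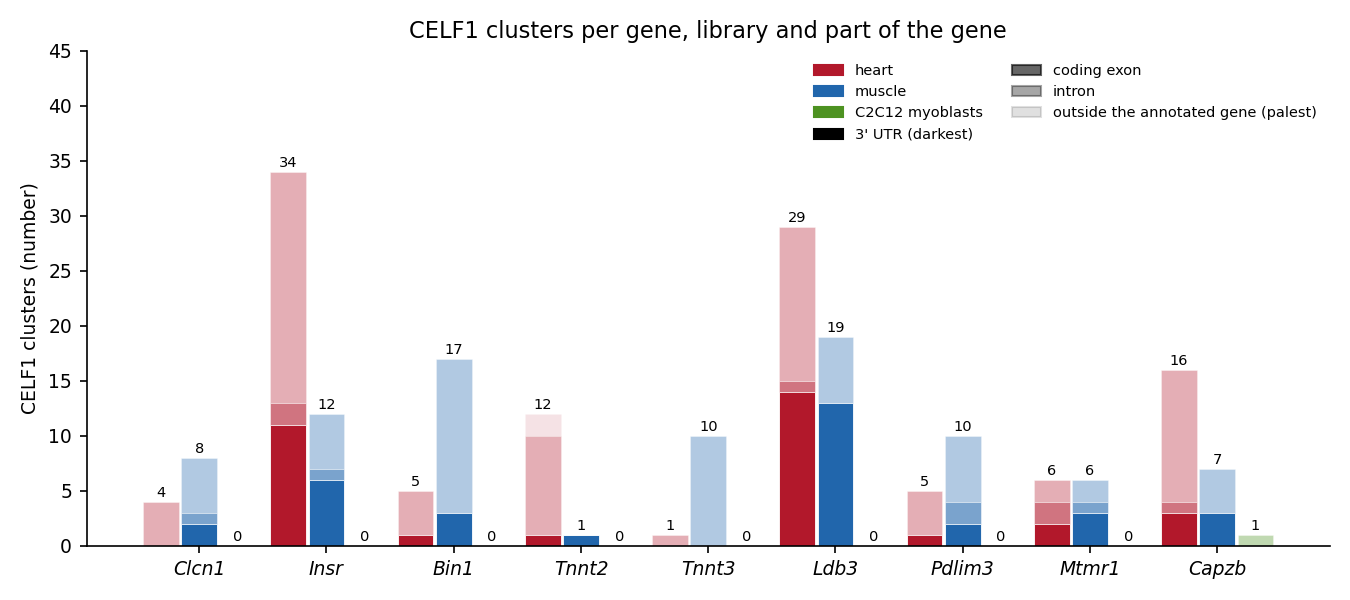
Number of CELF1 clusters (y axis) in each of the 9 genes (x axis), by library (colour: heart, muscle and C2C12 myoblasts from left to right) and by part of the gene (shade). Insr and Ldb3 held the most clusters, Tnnt2 held 12 in heart and 1 in muscle, Tnnt3 held 1 in heart and 10 in muscle, and the only myoblast cluster lay in Capzb.

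The chloride channel gene Clcn1 (chr6:42236684-42265755, plus strand, mm9) held 4 clusters in heart and 8 in muscle, with 0 in myoblasts. All 4 heart clusters were intronic, and in muscle 5 were intronic, 1 lay in a coding exon and 2 lay in the 3' UTR. Inclusion of exon 7a, a 79-nt exon between exons 6 and 7 that brings an early stop codon, removes working channel in the disease and causes myotonia. The annotation holds 2 cassette exons of 79 nt in Clcn1. The one at chr6:42243443-42243521 is taken here as exon 7a because 3 of 3 transcripts that hold it reach a stop codon in the next exon, a choice made after the clusters had been seen. A cassette exon is any internal exon of 1 transcript that lies whole within an intron of another, and distances run from the midpoint of a cluster to the nearest base of the exon. The exon altered in patients is named below only for Clcn1, Insr and Tnnt2. In the other genes distances run to every annotated cassette exon, and which of these is altered in patients was not established.

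CELF1 clusters lay just upstream of exon 7a in both tissues. The heart clusters were 202 and 92 nt upstream, and the muscle clusters were 436, 204 and 104 nt upstream. The nearest downstream cluster was 4729 nt away in heart and 4719 nt away in muscle. The upstream pair occupied the same stretches in both tissues, and these are the closest bound stretches to exon 7a. The first 30 nt of each overlap, at its end farther from the exon, are written 5′ to 3′ with every UGU in capitals. The distances beside them are those of the heart cluster midpoints.
Clcn1 chr6:42243206-42243235, 202 nt upstream in heart: cuucUGUcUGUcuuccucgUGUcuaucccu
Clcn1 chr6:42243323-42243352, 92 nt upstream in heart: UGUuuccuccUGUgcugcccccguucuucu
Both printed parts were pyrimidine-rich, with UGU spread singly and without a long UGU repeat. The remaining heart clusters of Clcn1 were 548 nt upstream of a 126-nt exon and 500 nt downstream of a 105-nt exon. Muscle had clusters 558 nt upstream and 566 nt downstream of these exons, of which the first overlapped the heart cluster and the second did not. The 3' UTR clusters of muscle (chr6:42264192-42264247 and chr6:42264381-42264423) had no heart counterpart.

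The insulin receptor gene Insr (chr8:3150922-3279617, minus strand) held 34 clusters in heart, the most of the 9 genes there, and 12 in muscle, with 0 in myoblasts. In heart 11 lay in the 3' UTR, 2 in coding exons and 21 in introns, and in muscle 6 lay in the 3' UTR, 1 in a coding exon and 5 in introns. Skipping of exon 11, which has 36 nt, gives the receptor form of lower insulin signalling that is raised in the disease. No cluster lay within 1000 nt of this exon (chr8:3181702-3181737). The nearest was downstream, 1236 nt away in heart and 1228 nt away in muscle, and was shared. The nearest upstream cluster, also shared, was 3465 nt away in heart and 3472 nt away in muscle. It held more UGU than any other Insr stretch common to both tissues and is shown with the richest shared stretch of the 3' UTR.
Insr intron chr8:3185192-3185221, minus strand: gUGUgcuuUGUGUcaUGUGUGUaUGUGUGU
Insr 3' UTR chr8:3154897-3154926, minus strand: caccUGUGUgcauuUGUGUGUaUGUUGUGU
Both were made up largely of UGU. Of the 12 muscle clusters in Insr, 10 (83.3%) overlapped a heart cluster, and of the 34 heart clusters 11 (32.4%) overlapped a muscle cluster. The 4747-nt 3' UTR had clusters near both ends. Heart clusters covered 16.1% of it and muscle clusters 8.62%.

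Tnnt2, the troponin T gene of the heart (chr1:137737452-137748837, plus strand), held 12 clusters in heart and 1 in muscle, with 0 in myoblasts. Of the heart clusters 10 lay inside the annotated gene, or 8.78 per 10 kb, the highest density among the 9 genes in heart and muscle. Exon 5, a 30-nt exon included in fetal heart and again in diseased adult heart, was flanked on both sides in heart, with a cluster 42 nt upstream and another 42 nt downstream. Neither reached into the exon. The sequences are shown because the exon itself carries no UGU and the bound flanks do.
Tnnt2 upstream flank chr1:137740304-137740333: cuaaccUGUucugcuugcucccuuugcUGU
Tnnt2 exon 5 chr1:137740362-137740391: aggaagacuggagugaagaagaggaggacg
Tnnt2 downstream flank chr1:137740399-137740428: agcguucccuauccUGUgccUGUcccugcu
The flanks were pyrimidine-rich and held 2 UGU each, fewer than most clusters, while the exon was purine-rich. A 12-nt exon further upstream in Tnnt2 had heart clusters 209 and 157 nt upstream, each with 12 UGU. A 9-nt exon had heart clusters 779, 609 and 71 nt upstream. In all, 7 of 12 heart clusters lay within 1000 nt of a cassette exon, and such windows cover 51.0% of this short gene. The single muscle cluster lay in the 188-nt 3' UTR and overlapped a heart cluster there. A further 2 heart clusters carried the Tnnt2 identifier but lay 4446 and 2230 nt before the annotated start of the gene (chr1:137732969-137733044 and chr1:137735186-137735258), where the annotation has no gene on this strand. The authors took gene bounds from RefSeq, Ensembl and UCSC tables, which can reach further than the annotation used here.

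Tnnt3, the troponin T gene of fast muscle (chr7:149684741-149701914, plus strand), had the opposite distribution and held 1 cluster in heart and 10 in muscle, with 0 in myoblasts. All 11 were intronic. Of its 8 cassette exons, which range from 12 to 41 nt, 6 had a muscle cluster within 1000 nt. A 39-nt exon (chr7:149693655-149693693) had the only heart cluster, 94 nt downstream, and a muscle cluster 102 nt downstream that covered the same stretch. It is shown as the single Tnnt3 stretch bound in both tissues.
Tnnt3 chr7:149693754-149693783, downstream of the 39-nt exon: agaaccaacaguccagUGUGUcuuUGUUGU
Another muscle cluster lay 356 nt downstream of the 39-nt exon. A 15-nt exon of Tnnt3 had a muscle cluster 100 nt upstream, and an 18-nt exon had muscle clusters 640 and 456 nt upstream and 416 and 539 nt downstream. The most UGU-rich of these held 20 UGU. For the pair of 41-nt exons near the 3' end of the gene, the nearest muscle cluster stood 2111 nt away.

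Ldb3, which encodes a Z-disc protein (chr14:35339885-35401867, minus strand), held 29 clusters in heart and 19 in muscle, with 0 in myoblasts, and was the member with the most clusters in 3' UTRs, 14 in heart and 13 in muscle. The long isoforms end in a 2761-nt 3' UTR that held 10 clusters in heart and 9 in muscle. A short isoform ends within the gene in a 532-nt 3' UTR that held 4 clusters in each tissue, or 7.52 clusters per kb in heart and in muscle, against 3.62 in heart and 3.26 in muscle in the longer one.

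Of the Ldb3 cassette exons, a 15-nt exon had a cluster 66 nt upstream in heart and 61 nt upstream in muscle. A 204-nt exon had heart clusters 350 and 47 nt upstream and 609, 696 and 796 nt downstream, whereas muscle clusters lay 398 nt upstream and 792 nt downstream. The cluster 47 nt upstream of the 204-nt exon was found in heart alone. The nearest cluster to the 186-nt exon of Ldb3 stood 5809 nt away in heart and 5796 nt away in muscle. Stretches bound in both tissues beside the 15-nt exon and in the long 3' UTR are shown to contrast their UGU content.
Ldb3 chr14:35382973-35383002, minus strand, upstream of the 15-nt exon: gguccuaaccccgcucucuUGUGUgcgcug
Ldb3 3' UTR chr14:35341174-35341203, minus strand: uUGUGUGUaUGUGUGUGUGUGUaUGUGUGU
The first held 2 UGU and the second 12 UGU within 30 nt. This pair does not stand for all Ldb3 sites of each kind. The shared clusters 796 nt (heart) and 792 nt (muscle) downstream of the 204-nt exon held 13 UGU each. Several shared heart clusters of the long 3' UTR held only 2 UGU.

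**Figure D2:**
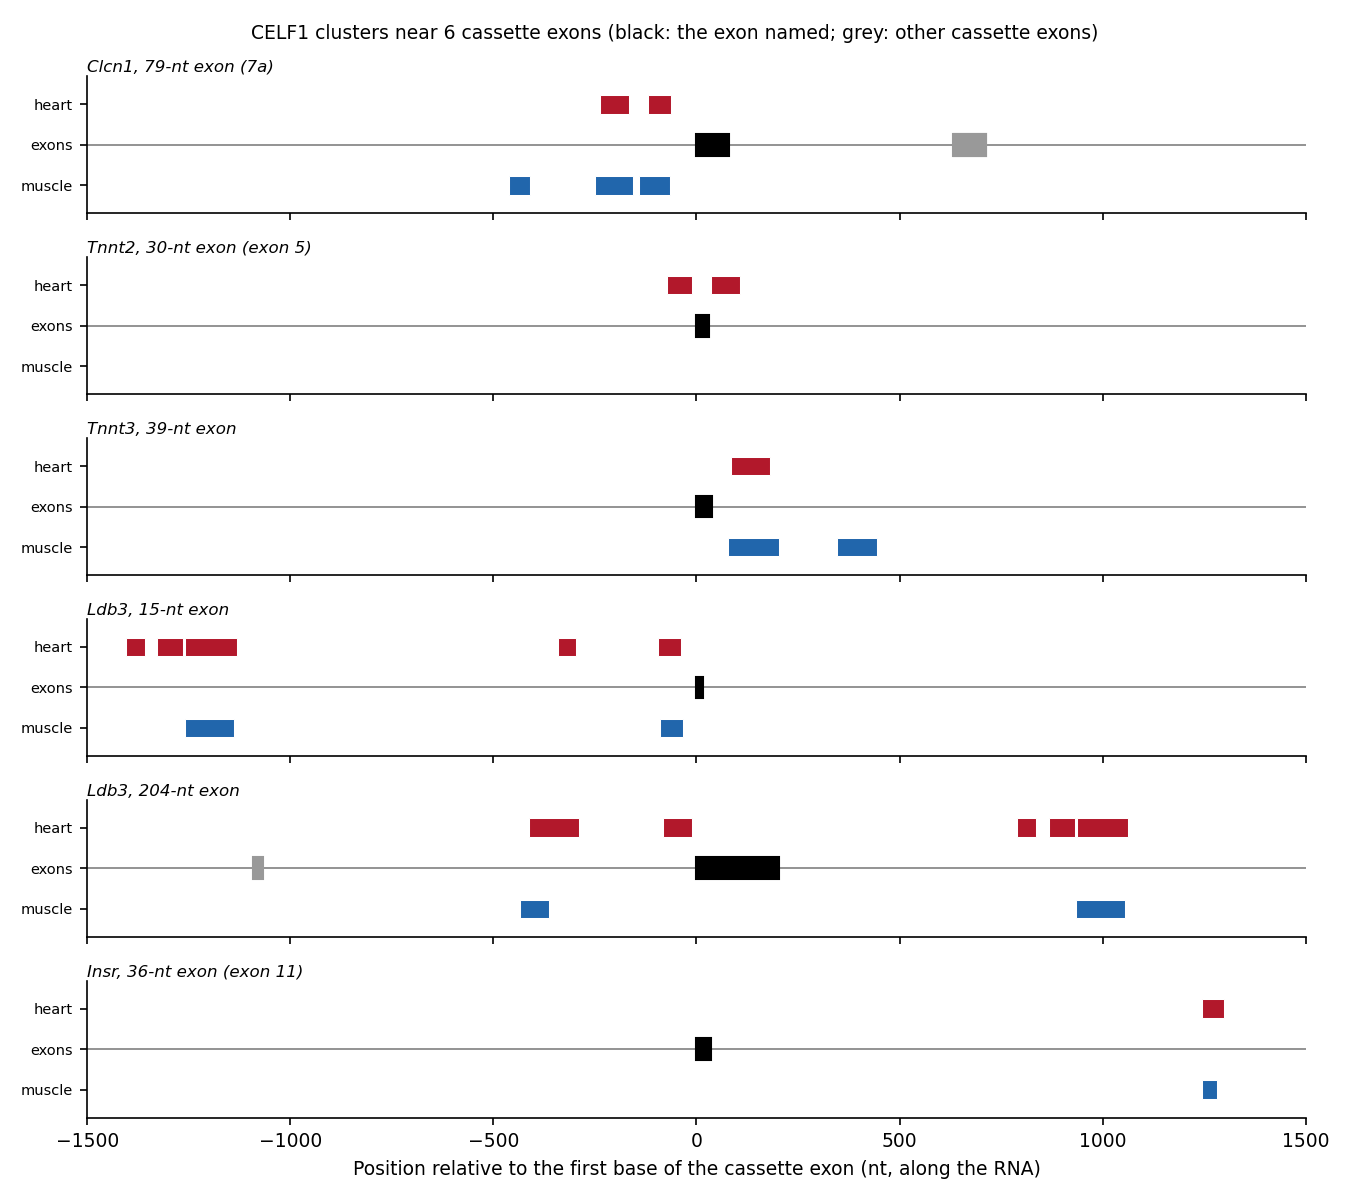
Position of CELF1 clusters (red, heart, above the line; blue, muscle, below the line) relative to the first base of 6 cassette exons (x axis, nt along the RNA; black, the named exon; grey, other cassette exons of the gene). Clusters of both tissues stood upstream of the Clcn1 and the 15-nt Ldb3 exon and downstream of the Tnnt3 exon, heart clusters alone flanked Tnnt2 exon 5, and the nearest Insr clusters stood 1236 nt (heart) and 1228 nt (muscle) downstream of exon 11.

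Pdlim3, a Z-disc protein gene (chr8:46970839-47004900, plus strand), held 5 clusters in heart and 10 in muscle, with 0 in myoblasts. The annotation gives a single transcript, so no distance to a cassette exon could be measured. All 5 heart clusters overlapped a muscle cluster. An intronic stretch held 20 UGU in its first heart cluster and 23 UGU in its muscle cluster, the largest number in any cluster of the 9 genes, and is shown for that reason.
Pdlim3 intron chr8:46976016-46976045: cucUGUGUuUGUGUGUGUGUGUGUGUuUGU
In muscle 2 of the 10 clusters lay in coding exons and 2 in the 532-nt 3' UTR, and in heart 1 of the 5 lay in the 3' UTR.

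Mtmr1 (chrX:68617935-68672371, plus strand) held 6 clusters in heart and 6 in muscle, with 0 in myoblasts. Its 3 cassette exons, of 24, 27 and 51 nt, lie together, and the nearest cluster was 2864 nt upstream in heart and 22485 nt downstream in muscle. The bound stretches common to both tissues were a coding exon and 2 sites in the 3' UTR. A further 3' UTR cluster was found in muscle alone.

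Capzb (chr4:138748814-138847733, plus strand) held 16 clusters in heart and 7 in muscle, with 1 in myoblasts. The nearest cluster to its 113-nt cassette exon stood 2170 nt downstream in heart and 2161 nt downstream in muscle, and the nearest to its 144-nt exon stood 5694 nt away in heart and 11686 nt away in muscle. The 3' UTR held 3 clusters in heart and 3 in muscle, and the first of them lacked UGU in heart and in muscle. The myoblast cluster (chr4:138757665-138757699) lay in an intron near the start of the gene, within a wider heart cluster. It is shown as the only myoblast cluster of the 9 genes.
Capzb chr4:138757665-138757694, myoblasts and heart: agugcugcaguggUGUcccuuUGUcUGUcc

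Bin1 (chr18:32536871-32595390, plus strand), whose muscle form bends membrane into T-tubules, held 5 clusters in heart and 17 in muscle, with 0 in myoblasts. The exon altered in patients could not be identified in the annotation, which gives 3 transcripts and 5 cassette exons of 93, 129, 108, 24 and 108 nt. None of these is taken as that exon, so the distances below are not distances to it. The first 108-nt exon had a cluster 80 nt upstream in heart and 80 nt upstream in muscle. This stretch was rich in UGU, with 12 in the heart cluster and 17 in the wider muscle cluster. In muscle alone, a further cluster lay 34 nt upstream of the 24-nt exon and another lay 810 nt downstream of the 93-nt exon. Of the 5 heart clusters 4 overlapped a muscle cluster, whereas 13 of 18 bound stretches of Bin1 were found in muscle alone. The 494-nt 3' UTR held 1 cluster in heart and 3 in muscle, which covered 11.1% of it in heart and 51.0% in muscle.

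The libraries differ in size, so cluster numbers were also compared per 10000 clusters of the library, and a gene was counted as past the threshold where the 2 shares differed at least 2-fold. Past 2-fold in these libraries, 1 of the 9 genes was higher in heart than in muscle (Tnnt2) and 4 were lower in heart (Clcn1, Bin1, Tnnt3 and Pdlim3). Of 3771 genes with at least 5 clusters over both tissues, 18.0% were past 2-fold higher in heart and 19.3% past 2-fold lower. Tnnt2 had 2.84 clusters per 10000 in heart and 0.403 in muscle, a ratio of 7.05 (exact 95% interval 1.04 to 302). With the 10 heart clusters inside the annotated gene alone, the ratio was 5.91 (0.84 to 256), an interval that includes equal shares. Tnnt3 had 0.237 in heart and 4.03 in muscle, a ratio of 0.0588 (0.00135 to 0.413). Bin1 had a ratio of 0.173 (0.0499 to 0.488) and Pdlim3 of 0.294 (0.0788 to 0.944).

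The interval of Clcn1, 0.0648 to 1.1 around a ratio of 0.294, includes equal shares. So do those of Insr (1.67, interval 0.841 to 3.53), Ldb3 (0.897, 0.486 to 1.69), Mtmr1 (0.588, 0.157 to 2.2) and Capzb (1.34, 0.523 to 3.86), which were not past 2-fold. Clusters of the heart muscle and skeletal muscle marker lists differed between the tissues in the same sense as Tnnt2 and Tnnt3, and their part in these ratios was not tested. In whole tissue, fewer cells of a type and less RNA per cell cannot be told apart, nor can either be told apart from less binding in lists without read numbers.

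In the myoblast library, 8 of the 9 genes had 0 clusters. A floor of 3 clusters of 5115 is 5.87 per 10000, and the exact 95% upper limit for a count of 0 is 7.21 per 10000. The exact lower limit of the share was below this floor in heart and in muscle for 8 of these 8 genes. By this rule no single gene at 0 could be told apart from myoblasts with 5115 clusters, and the rule does not address the 9 genes as a set. This outcome rests on the chosen floor. No exact interval of the ratio, as used for heart over muscle, was calculated for genes at 0. Of the members with at least 5 clusters over both libraries, none of 7 was past 2-fold higher in heart (5.05% of 3009 genes were) and none of 8 in muscle (8.11% of 2072 genes were). For genes at 0 this was fixed by the floor, since their highest share was 8.04 per 10000 in heart (Insr) and 7.65 in muscle (Ldb3). No conclusion is drawn from it. The floor was not used for Capzb, which had 1.96 per 10000 in myoblasts, so its ratios cannot be set beside those of genes at 0. Capzb had a ratio of 1.94 (0.301 to 81.2) for heart over myoblasts and 1.44 (0.185 to 65.0) for muscle over myoblasts.

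Clusters of the 9 genes were mostly intronic. In heart, 71 of 112 (63.4%, exact 95% interval 53.8 to 72.3) lay in introns, 33 (29.5%, 21.2 to 38.8) in 3' UTRs and 6 (5.36%) in coding exons. Over all heart clusters placed in a gene, 59.3% lay in introns and 33.3% in 3' UTRs. In muscle, 52 of 90 (57.8%, 46.9 to 68.1) lay in introns, 33 (36.7%, 26.8 to 47.5) in 3' UTRs and 5 (5.56%) in coding exons. Over all muscle clusters, 43.5% lay in introns and 50.3% in 3' UTRs, so the 3' UTR interval of the 9 genes lay below the share of the muscle library. The interval treats clusters as independent, but they came from 9 genes with unlike shares, such as 0 of 10 in Tnnt3 and 13 of 19 in Ldb3. It therefore does not show a difference for such genes in general. Without Ldb3 the 3' UTR share of the remaining genes was 22.9% in heart and 28.2% in muscle.

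**Figure D3:**
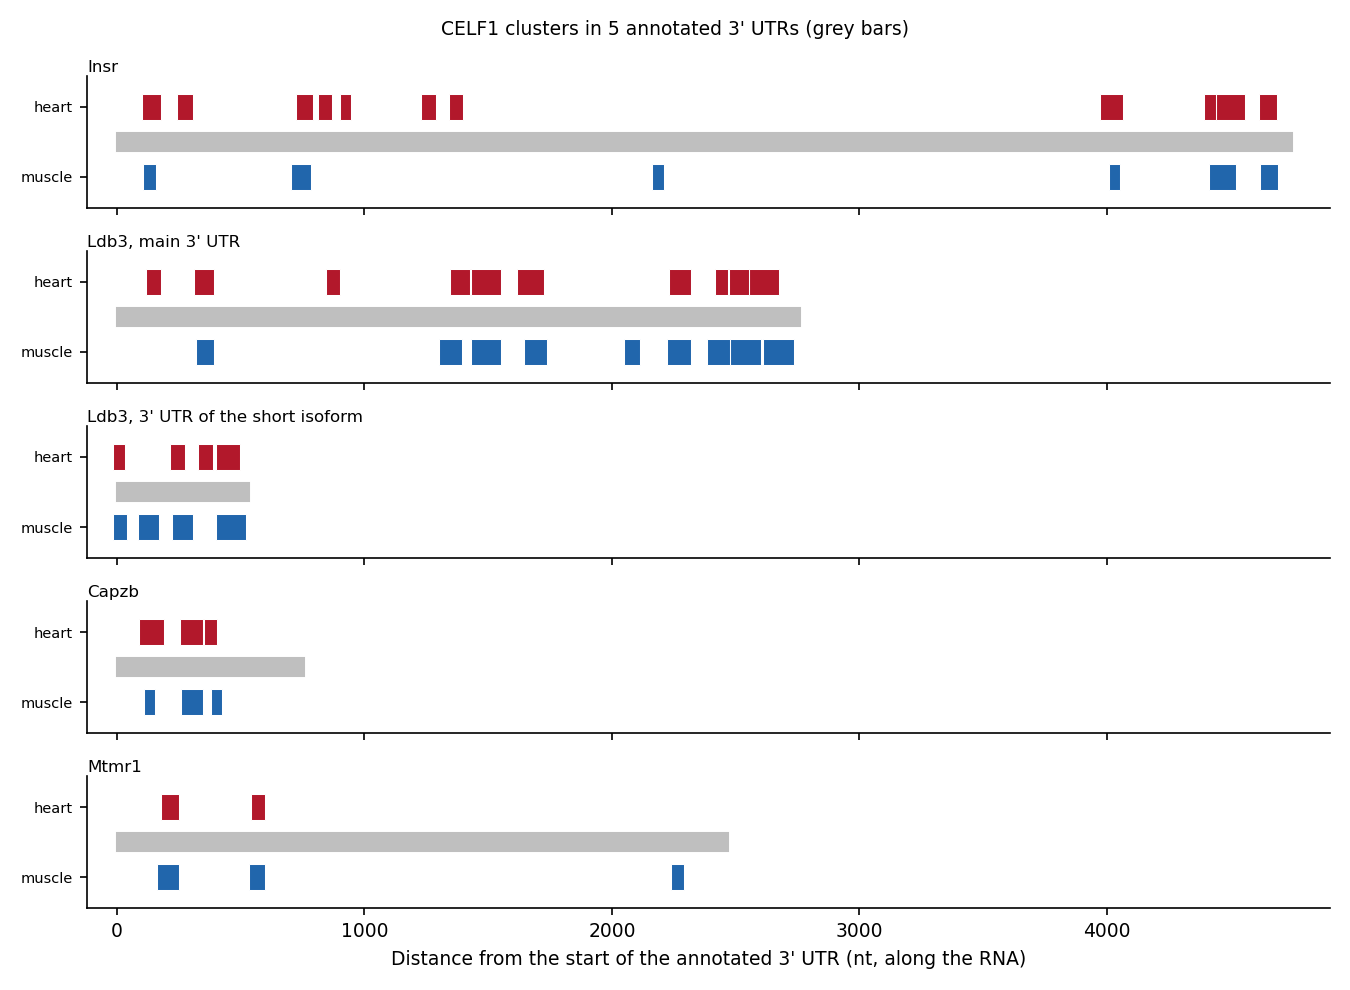
CELF1 clusters (red, heart, above; blue, muscle, below) along 5 annotated 3' UTRs (grey bars; x axis, distance from the start of the 3' UTR in nt along the RNA). Most sites of Ldb3, Capzb and Mtmr1 were bound in both tissues, and the 532-nt 3' UTR of the short Ldb3 isoform held 4 clusters in each tissue.

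Clusters stood near annotated cassette exons, whether or not these are altered in patients, more often than in the libraries as a whole. Within 1000 nt of an annotated cassette exon lay 20 of 112 heart clusters (17.9%, 11.3 to 26.2), against 5.32% of all heart clusters, and 19 of 90 muscle clusters (21.1%, 13.2 to 31.0), against 4.75% of all muscle clusters. None of them had its midpoint inside a cassette exon, where 0.63% of all heart clusters and 0.539% of all muscle clusters lay. These genes are also richer in such exons, with windows of 1000 nt covering 10.7% of their length against 3.53% over all genes with a cluster, and the part of this difference in the shares was not tested. Among the near clusters 14 were upstream and 6 downstream in heart, and 12 were upstream and 7 downstream in muscle. The median distance was 205.5 nt in heart and 398 nt in muscle, and 8 heart clusters and 4 muscle clusters stood within 100 nt.

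Within 300 nt of any splice site of the gene lay 27.7% of heart clusters (19.6 to 36.9, against 17.1% of all) and 34.4% of muscle clusters (24.7 to 45.2, against 16.1%). The members were unlike, with 9 of 12 in Tnnt2 and 5 of 34 in Insr in heart, and 6 of 10 in Tnnt3 and 2 of 12 in Insr in muscle. How much of each gene such windows cover was not measured, and the part of gene structure in these shares was not tested.

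The members fell into unlike groups in this respect. Near a cassette exon lay 4 of 4 heart and 5 of 8 muscle clusters of Clcn1, and 7 of 12 heart and 0 of 1 muscle clusters of Tnnt2. In Tnnt3 these were 1 of 1 heart and 8 of 10 muscle clusters, in Ldb3 7 of 29 heart and 3 of 19 muscle clusters, and in Bin1 1 of 5 heart and 3 of 17 muscle clusters. In Insr (34 in heart, 12 in muscle), Mtmr1 and Capzb there was none. The windows cover 32.5% of Clcn1, 55.5% of Tnnt3, 15.9% of Ldb3 and 13.5% of Bin1, but 1.58% of Insr, 7.67% of Mtmr1 and 4.3% of Capzb. Of the 34 cassette exons, 14 had a heart cluster within 1000 nt, 17 a muscle cluster, 11 both and 14 neither. These exons are not all separate, since 1 cluster can count for several neighbouring exons. In Clcn1 the exons chr6:42244074-42244155 and chr6:42244077-42244155 even share an end. Over 12893 cassette exons in genes with a cluster in any library, 16.6% had a heart cluster and 9.26% a muscle cluster within this distance. All 9 members were bound in both tissues, and the part of this in the difference was not tested.

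**Figure D4:**
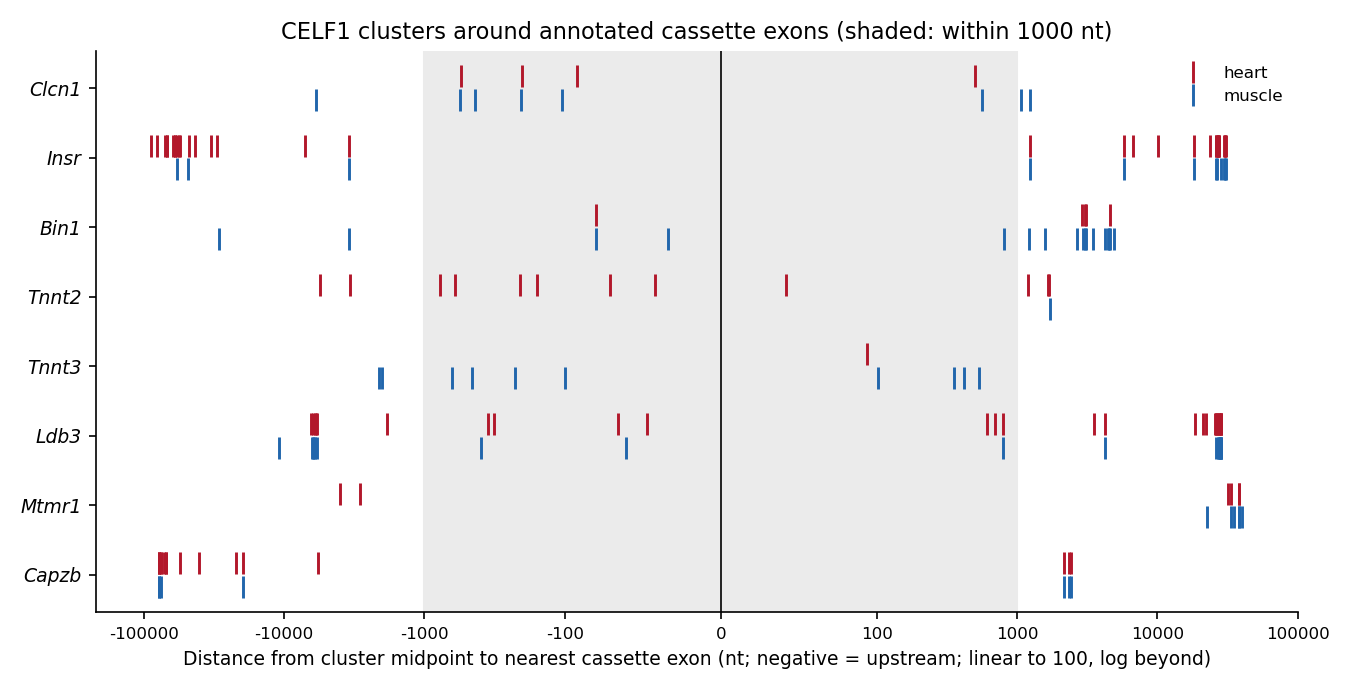
Distance from the midpoint of each cluster to the nearest cassette exon (x axis, nt, negative upstream, linear to 100 nt and logarithmic beyond) for 8 genes in heart (red, upper row) and muscle (blue, lower row); the shaded band spans 1000 nt on either side. Most clusters of Clcn1 and Tnnt3 and 7 of 12 heart clusters of Tnnt2 lay within the band, as did 0 of 1 muscle clusters of Tnnt2. Those of Insr, Mtmr1 and Capzb stood outside it. Such windows cover 32.5% of Clcn1, 51.0% of Tnnt2 and 55.5% of Tnnt3, but 1.58% of Insr, 7.67% of Mtmr1 and 4.3% of Capzb.

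CELF1 sites in the 9 genes were in part common to heart and muscle. Sharing meant an overlap of at least 1 bp on the same strand. Of the heart clusters, 49 of 112 (43.8%, 34.4 to 53.4) overlapped a muscle cluster, against 30.9% over the heart library, and of the muscle clusters 47 of 90 (52.2%, 41.4 to 62.9) overlapped a heart cluster, against 52.8% over the muscle library. In 3' UTRs the shared part was 25 of 33 heart clusters (75.8%, 57.7 to 88.9, against 53.8% of all) and 24 of 33 muscle clusters (72.7%, 54.5 to 86.7, against 60.8%). In introns it was 22 of 71 heart clusters (31.0%, 20.5 to 43.1, against 19.0%) and 21 of 52 muscle clusters (40.4%, 27.0 to 54.9, against 43.6%). The shares were higher in 3' UTRs than in introns in both directions, as they were over the whole libraries, and both muscle intervals include the shares of the muscle library. All 9 genes were bound in both tissues, which does not hold for all genes of the libraries. The part of this in the heart shares was not tested.

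Merging overlapping clusters gave 151 bound stretches, of which 62 were found in heart alone, 45 in heart and muscle, 43 in muscle alone, and 1 in heart and myoblasts. Insr held 23 heart-only stretches of its 35, and Tnnt2 11 of 12. Bin1 held 13 muscle-only stretches of 18 and Tnnt3 9 of 10. Ldb3 held 14 common stretches of 30. Clusters were not merged in this way over the whole libraries. Unmerged, 30.9% of all heart clusters overlapped a muscle cluster, and 52.8% of all muscle clusters overlapped a heart cluster. In Insr, 32.4% of heart clusters overlapped a muscle cluster, near the share of the heart library. The heart library is also the larger, with 42263 clusters against 24844 in muscle. The myoblast cluster of Capzb overlapped a heart cluster, as did 33.9% of all myoblast clusters, and no muscle cluster.

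**Figure D5:**
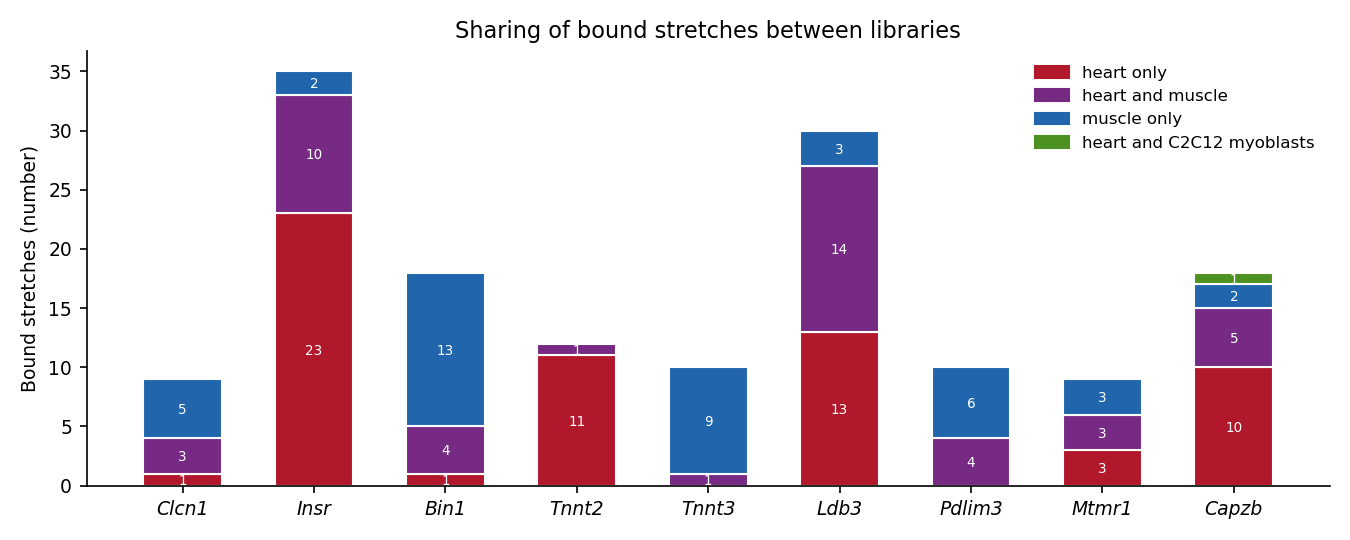
Number of bound stretches (y axis) in each gene (x axis) found in heart only, in heart and muscle, in muscle only, or in heart and C2C12 myoblasts, after merging overlapping clusters. Heart-only stretches were 23 of 35 in Insr and 11 of 12 in Tnnt2. Muscle-only stretches were 13 of 18 in Bin1 and 9 of 10 in Tnnt3. Over the libraries, 30.9% of all heart clusters overlapped a muscle cluster, near the 32.4% of Insr heart clusters, and 52.8% of all muscle clusters overlapped a heart cluster.

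The trinucleotide UGU, searched on the transcribed strand, was present in 108 of 112 heart clusters (96.4%, 91.1 to 99.0) and 88 of 90 muscle clusters (97.8%, 92.2 to 99.7) of the 9 genes, against 98.3% of all heart clusters and 98.4% of all muscle clusters. The number per cluster ran up to 20 in heart and 23 in muscle. The 4 heart clusters without UGU were 2 in Ldb3 and 2 in Capzb, and the 2 muscle clusters were 1 in each of these genes. A sequence bound by MBNL proteins, YGCY (UGCU or UGCC, or either with an initial C, on the transcribed strand, where it can share a U with UGU), was present in 71 of 112 heart clusters (63.4%, 53.8 to 72.3, against 53.2%) and 51 of 90 muscle clusters (56.7%, 45.8 to 67.1, against 50.5%). The clusters of the 9 genes were also slightly wider, with a median of 60 nt in heart and 59.5 nt in muscle against 55 nt over the heart library and 54 nt over the muscle library, and the part of width in the YGCY shares was not tested.

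Of 28 other genes known to be misspliced in the disease, 25 were bound in heart, 26 in muscle and 11 in myoblasts. Over annotated protein-coding genes, 30.4% were bound in heart, 23.6% in muscle and 12.1% in myoblasts. The 28 genes had a median of 15.5 clusters a gene for heart, 10.5 for muscle and 0 for myoblasts. Over all genes with a cluster in any library these medians were 3, 1 and 0. Those with many clusters included Ttn, the giant spring protein of the sarcomere (184 in heart and 177 in muscle, with 0 in myoblasts), Dmd, which encodes dystrophin (150 in heart, 119 in muscle, 0 in myoblasts), and Mbnl1 itself (40 in heart, 53 in muscle, 7 in myoblasts). Of 26 with at least 5 clusters over both tissues, 5 were past 2-fold higher in heart and 6 past 2-fold lower. These shares were close to those over all 3771 such genes, 18.0% higher and 19.3% lower.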

How the data were processed

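The 9 genes and all lists were chosen with earlier results of these data known. By the labels and the paper's methods, the authors removed duplicate reads (a barcode helped), kept unique matches to mm9 and its splice junctions (Bowtie and TopHat, whose versions the sources used here do not give) and called clusters in each library by a Poisson model of expression and pre-mRNA length. The deposited files give position, strand and Entrez identifier. A further column, 1e-06 throughout, is not explained in the labels and was left out. Starts were read as counted from 0, as in BED files, and are printed counted from 1.

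Clusters were placed by midpoint with GENCODE vM1 on NCBIM37, the assembly of mm9, in the order 3' UTR, coding exon, 5' UTR and intron. Of 8037 identifiers, 7981 (99.3%) matched an annotated gene, through RefSeq names of GRCm38. Sequences were read from NCBIM37. Shares have exact Clopper-Pearson 95% intervals, which cover counting error only. Ratios compare clusters per 10000, with 0 replaced by a floor of 3 clusters per library. Named genes were all 9 members, and up to 4 others with the most clusters, of which 1 is not reported here. Placement and distances were checked on made-up gene models. The alternatives changed cluster width, gene bounds, placement, windows, overlap, motif and scaling. Programs were samtools 1.23.1 and Python 3.11.15 with pysam 0.24.0, scipy 1.17.1, pandas 2.3.3, numpy 2.4.6 and matplotlib 3.10.9.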

Additional observations from a re-analysis of the deposited data

How the results depend on the processing

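Of 72 recomputed values, 64 kept their size or side of the 2-fold threshold. With a window of 300 nt in place of 1000 nt, 9.82% of heart and 8.89% of muscle clusters lay near a cassette exon, against 2.78% of all heart and 2.36% of all muscle clusters. Without Insr and Capzb, left out after the data had been seen, the heart share was 32.3%. UUUGU or UGUGU in place of UGU was present in 74.1% of heart and 73.3% of muscle clusters, against 71.3% of all heart and 70.6% of all muscle clusters. With only clusters inside the annotated gene, chosen after seeing the data, Tnnt2 had a ratio of 5.91. With plain numbers in place of library shares, Insr (2.83) and Capzb (2.29) passed 2-fold in heart over muscle, and Mtmr1 (0.477) did with clusters of at least 40 nt only. Joining clusters of a library with 10 nt or less between them, also chosen after seeing the data, gave 103 stretches in heart and 86 in muscle. No paired analysis was possible because each group has 1 library and no result comes from a test, and for the same reason no library could be left out.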
